A study of Mus musculus with 4 samples.

Results

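Akr1c18-high spots of the mouse ovary are described here: of 4134 array spots with at least 1000 UMIs (unique molecular identifiers, each standing for 1 captured RNA molecule), the 413 with the most Akr1c18 transcripts per 10000 UMIs, a rule that takes the top 10% over all tissue. Akr1c18 chose the spots, so its own levels are a description and carry no test. RNA was captured from frozen 10 µm sections on Visium arrays, on which each barcoded spot covers a small region that can hold several cells of different types. There were 4 capture areas, each carrying 1 aged section (15 to 16 months) and 1 young section (3 to 4 months) from females of the outbred CD-1 stock, so that each age had 4 animals with 1 section each. The sources used here give neither oestrous stage nor breeding history, and a section shows 1 plane of 1 ovary.

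The corpus luteum is the body that the granulosa and theca cells of a follicle form after ovulation, and it makes progesterone from cholesterol. Star carries cholesterol into the mitochondrion, Cyp11a1 with its electron donor Fdx1 cuts the side chain to give pregnenolone, and Hsd3b1 turns pregnenolone into progesterone. Akr1c18 encodes 20-alpha-hydroxysteroid dehydrogenase, which turns progesterone into 20-alpha-hydroxyprogesterone, a steroid with little progestin activity. In rodents prolactin, acting through Prlr and STAT5, is known to hold this enzyme down, and prostaglandin F2-alpha, acting through Ptgfr, is known to raise it when a corpus luteum stops making progesterone. Hsd17b7, an enzyme of oestradiol and cholesterol synthesis, is known in rodents as a product of the corpus luteum of pregnancy, and Lhcgr is the receptor for luteinising hormone.

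Akr1c18 lies on chromosome 13 (positions 4132615 to 4150654, minus strand) and Hsd17b7 on chromosome 1 (positions 169949535 to 169969241, minus strand) of the mm10 build, per GENCODE release M21. Their promoter windows are shown because these 2 genes define the 2 classes of luteal spots compared further on. Each runs 5′ to 3′ in the direction of the gene, from 250 bases before to 50 bases after the RefSeq start (GRCm38.p6, chr13:4150597-4150896 and chr1:169969156-169969455, both minus strand). Capitals mark AGGTCA, a half-site of nuclear receptors.
Akr1c18: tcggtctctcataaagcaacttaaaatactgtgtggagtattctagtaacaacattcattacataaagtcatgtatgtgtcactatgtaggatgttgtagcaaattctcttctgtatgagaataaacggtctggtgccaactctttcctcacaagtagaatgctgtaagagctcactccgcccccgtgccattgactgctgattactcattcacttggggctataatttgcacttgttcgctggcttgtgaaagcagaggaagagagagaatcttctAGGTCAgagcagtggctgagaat
Hsd17b7: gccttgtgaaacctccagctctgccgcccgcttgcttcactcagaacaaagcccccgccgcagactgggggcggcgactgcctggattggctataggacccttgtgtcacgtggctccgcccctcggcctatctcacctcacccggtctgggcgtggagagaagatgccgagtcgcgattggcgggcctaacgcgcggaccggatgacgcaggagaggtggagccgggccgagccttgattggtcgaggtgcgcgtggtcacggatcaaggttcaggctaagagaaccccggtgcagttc
The Akr1c18 window held 1 AGGTCA on the strand shown, its first letter 28 bases after the start, and the Hsd17b7 window held none on either strand. Of 32851 promoter windows of this length, 16.3% held AGGTCA on either strand. The STAT5 palindrome TTCNNNGAA was in neither window and in 8.3% of all windows. A match is a string of letters and says nothing of binding.

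Members were found in all 8 sections, in very unequal numbers. The aged sections of areas 1 to 4 held 3, 20, 19 and 100 of them, and the young sections held 74, 19, 10 and 168. Area 4 thus held 268 members, 64.9% of all. The median member had 169 Akr1c18 UMIs per 10000 and the highest had 425, against a median of 15.1 in the other spots. By section, the median score of members was 129, 139, 174 and 248 in the aged sections of areas 1 to 4, and 159, 123, 131 and 176 in the young ones. At the threshold, the lowest member stood at 115.91 and the highest other spot at 115.89 per 10000, and 61 members and 64 other spots lay within 10% of it. The class is a range of the score, and whether it holds a separate cell type was not tested.

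Gene comparisons used the 6 sections with at least 15 members (aged 2, 3 and 4 and young 1, 2 and 4), which hold 400 of the 413. UMIs were summed over the members and over the other spots of a section, since spots of a section are not replicates. Member sums ran from 172500 UMIs in aged 3 to 4198605 in young 4, and sums of other spots from 2600833 in aged 3 to 20932251 in young 2. Levels are CPM, counts scaled to a fixed total of UMIs in each sum. Fewer cells of a type and less RNA per cell cannot be told apart in such sums. Median UMIs per spot were higher in members than in other spots in 7 of the 8 sections, the exception being aged 3 (7008 against 9020), and the median mitochondrial share was higher in members in 8 of 8. The gap in that share was wide in young 1 (4.23 against 0.799%) and slight in young 2 (0.758 against 0.752%). The part of depth and of mitochondrial share in the results was not tested.

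**Figure D1:**
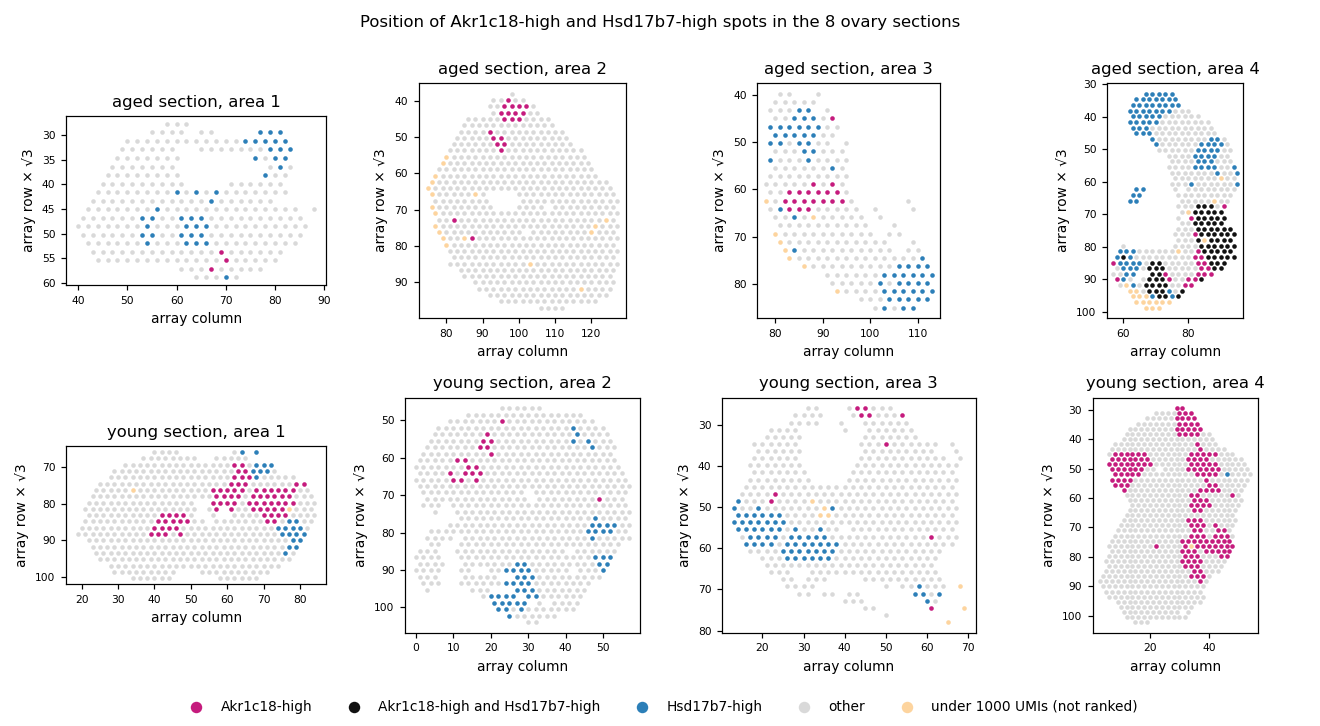
Position of every spot on the capture array, aged sections above and young sections below, with array column across and array row (times √3, to keep distances) down. Members (magenta, and black where they are also Hsd17b7-high) form compact patches, the largest of 76 spots in aged 4 where most are black.

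Members lay together. Of the direct neighbours of members on the hexagonal array, 70.6% were members too, against 3.26% of the neighbours of other spots. Patches of touching members with at least 10 spots numbered 12 and held 378 members (91.5%), another 5 small patches held 20, and 15 members stood alone. The largest patch had 76 spots and lay in the aged section of area 4, which had a second one of 21 spots. The aged sections of areas 2 and 3 had 1 patch each, of 12 and 18 spots. In young sections, area 1 had 3 patches of 32, 25 and 17 spots, area 2 had 1 of 11, and area 4 had 4 of 60, 44, 40 and 22. The 13 members of aged 1 and young 3 formed no patch of that size. The number of patches depends on the rule, with 8 when spots 2 steps apart are joined, 7 for the top 5% of spots and 19 for the top 20%.

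The working name of these spots, regressing corpus luteum, was checked against markers. Corpus luteum markers were abundant: the summed level of 13 of them, Akr1c18 left out, was 37789 to 57376 CPM in members and 15525 to 41286 CPM in the other spots, higher in members in 5 of 6 sections. That sum rests mostly on abundant genes such as Cyp11a1, Hsd3b1 and Star, and the markers did not all rise. Lhcgr was called lower (log2 fold change −1.89), and Hsd3b1 (0.15) and Hsd17b7 (−0.68) were not called. Regression itself was not measured, since the labels give no luteal stage. Of 25 genes of apoptosis and autophagy tested against the other spots, 3 were called higher and 1 lower, where 8.00% of all genes tested were called higher and 8.93% lower. The spots are called Akr1c18-high, after the gene that chose them.

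Against the other spots of the same section, Akr1c18-high spots were high in genes of cholesterol import and side-chain cleavage, in the prostaglandin F2-alpha receptor and in Sfrp4, and low in the LH receptor and in markers of granulosa cells, theca, oocytes, smooth muscle and dividing cells. In all, 2010 of 11869 genes tested (16.9%) passed edgeR's quasi-likelihood test at an adjusted p under 0.05, with 950 higher (8.00%) and 1060 lower (8.93%). The member counts given below for lists of genes are read against those shares. The lists were drawn up from textbook roles, with earlier results of these data known. With scaling by library size alone 487 were higher and 2170 lower, since that scaling moves the median log2 fold change of all genes to −0.24, against −0.02 here. The number of calls fell to 800 without young 1, to 1123 without young 2 and to 1064 without young 4, and with area 4 left out it was 769 higher and 706 lower of 11331.

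Luteal steroidogenesis was split. Of its 22 genes, all tested, 5 were called higher and 3 lower. The median log2 fold change of the list was 0.21, against −0.02 over all genes. Star had 2951, 7883 and 10594 CPM in members (lowest, median and highest of the 6 sections), against 951, 1689 and 5457 CPM in the other spots. It was higher in members of 6 of 6 sections, though the groups overlapped, with a log2 fold change of 1.94 ± 0.31 (SE, adjusted p = 0.00246). Cyp11a1 had 9368, 13140 and 14545 CPM in members and 3781, 7648 and 9824 CPM in the other spots, a log2 fold change of 1.15 ± 0.21 (adjusted p = 0.00491). The ranges of Cyp11a1 overlapped through the members of aged 3 alone.

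Fdx1 and Tspo rose less evenly. Fdx1 rose by 1.16 on the log2 scale (adjusted p = 0.0373) and was higher in 5 of 6 sections, but the call was lost without any 1 of aged 2, aged 3, young 1, young 2 or young 4 (adjusted p up to 0.131). Tspo, a cholesterol-binding protein of the outer mitochondrial membrane, rose by 0.86 (adjusted p = 0.0372), a call lost without any 1 of aged 3, young 1, young 2 or young 4 (adjusted p up to 0.121).

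Other genes of progesterone synthesis were not called. Hsd3b1 had 2458, 9745 and 12436 CPM in members and 4924, 7983 and 13168 CPM in the other spots, a log2 fold change of 0.15 ± 0.39 (adjusted p = 0.855) whose sign changes with the scaling. Scarb1, the receptor that takes up cholesterol from HDL, had a log2 fold change of 1.05 ± 0.34 (adjusted p = 0.0535) and was higher in 5 of 6 sections. On the other side, Srd5a1, which reduces progesterone and testosterone at the 5-alpha position, had 6.14, 10.5 and 16.2 CPM in members against 20.4, 35.0 and 60.5 CPM in the other spots. Its groups did not overlap, and it fell by 1.66 on the log2 scale (SE 0.18, adjusted p = 0.000536). Nr5a2, a nuclear receptor needed for luteal steroidogenesis, fell by 0.95 (SE 0.15, adjusted p = 0.00226) and was lower in 6 of 6 sections.

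Cholesterol synthesis leaned upward, with 8 of 22 genes called higher and 1 lower. The list's median log2 fold change was 0.43. Fdps, which makes farnesyl pyrophosphate, had 527, 889 and 2551 CPM in members and 278, 458 and 1506 CPM in the other spots and was higher in 6 of 6 sections (log2 fold change 0.89 ± 0.17, adjusted p = 0.00593). The highest value of each class was that of aged 4.

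Among hormone receptors and signals, 15 tested of 17, 2 were called higher and 2 lower. Ptgfr had 1082, 2199 and 2314 CPM in members, against 236, 608 and 1090 CPM in the other spots, a log2 fold change of 1.95 ± 0.34 (adjusted p = 0.00362). It was higher in 5 of 6 sections. In aged 4 alone the values met, at 1082 CPM in members and 1090 CPM in other spots. Sfrp4, a secreted Wnt antagonist of luteal cells, had 3403, 8024 and 10715 CPM in members and 1162, 2113 and 5484 CPM in the other spots, and was higher in 6 of 6 sections (log2 fold change 1.73 ± 0.26, adjusted p = 0.00174).

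Lhcgr went the other way. It had 29.9, 71.0 and 154 CPM in members and 83.9, 283 and 826 CPM in the other spots, lower in members of 6 of 6 sections, with a log2 fold change of −1.89 ± 0.18 (adjusted p = 0.000261). Esr2, the oestrogen receptor of granulosa cells, fell by 1.69 (SE 0.36, adjusted p = 0.0101), except in aged 3, where members had 63.8 CPM. The Esr2 call was lost without young 1 (adjusted p = 0.0637). Prlr, the receptor that holds Akr1c18 down in rodents, was not called, with 254, 407 and 794 CPM in members, 121, 227 and 618 CPM in the other spots and a log2 fold change of 0.96 ± 0.33 (adjusted p = 0.0661).

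Of 19 genes of prostaglandin metabolism and luteolysis tested of 22, Ptgfr was the 1 called higher and 3 were called lower. Hpgd, which inactivates prostaglandins, had 2.30, 9.26 and 23.2 CPM in members and 11.5, 25.7 and 62.4 CPM in the other spots, and was lower in 5 of 6 sections (log2 fold change −1.70 ± 0.31, adjusted p = 0.00467). Of 14 aldo-keto reductases and steroid-inactivating enzymes tested of 21, 1 was called higher and 3 lower. Akr1c14, the 3-alpha-hydroxysteroid dehydrogenase, had 11.6, 28.4 and 117 CPM in members and 32.3, 93.6 and 224 CPM in the other spots (log2 fold change −1.26 ± 0.17, adjusted p = 0.00114, lower in 6 of 6 sections). Akr1c genes are close in sequence and lie side by side, so reads shared between them are uncertain. Hsd11b2, which inactivates glucocorticoids, fell by 1.84 (SE 0.27, adjusted p = 0.00149) and was lower in 6 of 6 sections.

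Beyond the lists, 2816 genes (23.7%) had the same direction in every section, and the called ones with the largest rise among them were Olfr810, Enpp3, S100a4, Klhl30, Cdkn2b, Onecut2, Trpm6, Plekhg4, Qpct, Bag4, Myo7a, Lgr5, Evi2a, S100a6 and Car5b, with log2 fold changes of 3.66 down to 2.00. Olfr810, annotated as an odorant receptor, had 15.0, 53.7 and 274 CPM in members and 1.92, 3.61 and 25.1 CPM in the other spots (log2 fold change 3.66 ± 0.22, adjusted p = 3.39e-05), the highest value of both classes being that of aged 2. Enpp3, an ectoenzyme that cleaves extracellular nucleotides, had 11.6, 46.6 and 53.9 CPM in members and 4.01, 5.61 and 9.33 CPM in the other spots, with no overlap (log2 fold change 2.94 ± 0.23, adjusted p = 0.000117).

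Cdkn2b, the cell cycle inhibitor p15, had 177, 313 and 530 CPM in members against 44.6, 74.1 and 158 CPM in the other spots. Its groups did not overlap, and the log2 fold change was 2.33 ± 0.29 (adjusted p = 0.000917). The calcium-binding proteins S100a4 and S100a6 rose by 2.86 (SE 0.47) and 2.03 (SE 0.27), and S100a6 reached 35812 CPM in members of aged 2. Lgr5, a receptor for R-spondins, had 41.4, 143 and 261 CPM in members and 13.9, 39.8 and 93.0 CPM in the other spots (log2 fold change 2.08 ± 0.26, adjusted p = 0.000917).

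Lists of stress-related genes held calls in both directions. Of 26 antioxidant and glutathione genes, 3 were called higher and 3 lower. Gpx3, a secreted glutathione peroxidase, had 3182, 6126 and 10041 CPM in members and 714, 1907 and 3696 CPM in the other spots (log2 fold change 1.88 ± 0.35, adjusted p = 0.00508), with aged 4 the 1 section where it was lower. Gstm1, a glutathione transferase, fell by 1.28 (SE 0.20, adjusted p = 0.00194). Of 17 immediate early genes tested of 19, 3 were called higher and 2 lower. Jun had 235, 327 and 427 CPM in members and 66.3, 136 and 285 CPM in the other spots (log2 fold change 1.44 ± 0.21, adjusted p = 0.00172), while Fos, its usual partner, fell by 1.29 (SE 0.30, adjusted p = 0.0142), a call lost without young 1 (adjusted p = 0.0558). Of 19 lysosomal genes 3 were called higher and 0 lower by edgeR, Psap with the largest log2 fold change among them, at 0.99 ± 0.19 (adjusted p = 0.00552). All 12 mitochondrially encoded genes tested had a positive log2 fold change, with a median of 0.36, but mt-Nd5 was the 1 called (adjusted p = 0.0482), a call lost without any 1 of aged 3, young 1, young 2 or young 4. The sections did not agree: in CPM, mt-Co1 was higher in members of 2 of 6 sections and mt-Nd1 in members of 3 of 6.

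**Figure D2:**
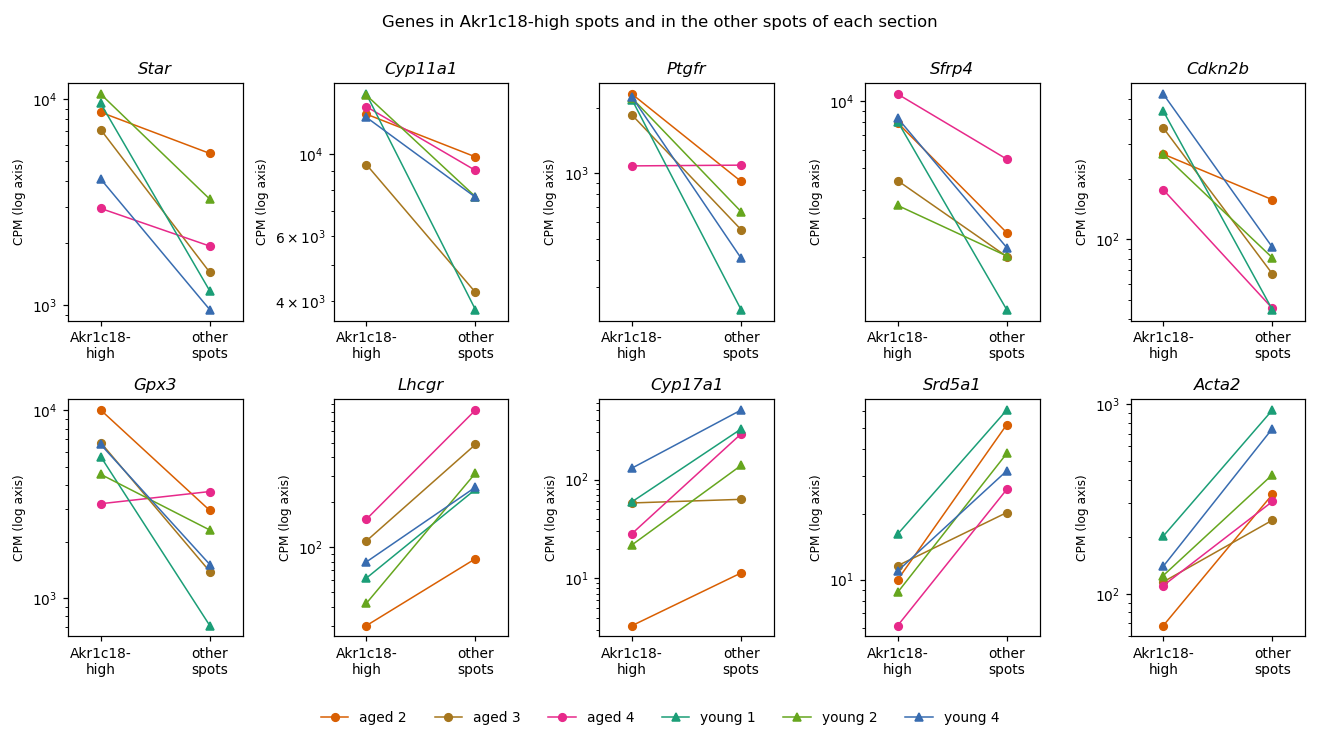
CPM (log axis) of 10 genes in Akr1c18-high spots, left, and in the other spots of the same section, right, each line 1 section (circles aged, triangles young). Star, Cyp11a1, Sfrp4 and Cdkn2b fall from left to right in every section, Ptgfr and Gpx3 do not in aged 4, and Lhcgr, Cyp17a1, Srd5a1 and Acta2 climb in all 6.

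Markers of other ovarian cells were mostly low. Of 13 granulosa markers tested of 15, 0 were called higher and 9 lower by edgeR, and the list's median log2 fold change was −1.72. Their summed level was 554 to 3136 CPM in members and 1353 to 6337 CPM in the other spots. Nap1l5 had 2.91, 17.8 and 92.8 CPM in members and 33.6, 122 and 382 CPM in the other spots (log2 fold change −2.58 ± 0.37, adjusted p = 0.00142). Its highest member value was that of aged 3, whose 19 members also held the most Slc18a2 (209 CPM), Ccnb1 (34.8 CPM) and Vcan (52.2 CPM).

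Of 7 theca and interstitial markers tested of 8, 5 were called lower and 0 higher. Cyp17a1, which makes androgens from progestins, had 3.33, 43.2 and 131 CPM in members and 11.4, 214 and 505 CPM in the other spots, lower in 6 of 6 sections (log2 fold change −2.09 ± 0.29, adjusted p = 0.00133). All 8 oocyte markers tested of 10 were called lower, among them Padi6 (log2 fold change −2.56 ± 0.30, adjusted p = 0.000758). Of 11 smooth muscle and pericyte markers 6 were called lower, among them Cnn1 with 3.33, 9.87 and 13.6 CPM in members and 13.1, 50.3 and 84.4 CPM in the other spots (log2 fold change −2.42 ± 0.25, adjusted p = 0.000402). Cell cycle genes fell in 15 of 20 tested, Ccnb1 by 1.73 (SE 0.33, adjusted p = 0.00557). Mki67 fell by 1.58 (SE 0.47, adjusted p = 0.0405), a call lost without any 1 of aged 3, young 1, young 2 or young 4.

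Stromal fibroblast markers were called lower in 5 of 11 tested, and endothelial markers in 2 of 12. Dcn, a matrix proteoglycan of fibroblasts, had 52.2, 88.2 and 241 CPM in members and 101, 226 and 531 CPM in the other spots (log2 fold change −1.12 ± 0.13, adjusted p = 0.000803). Angpt2, a vessel-destabilising ligand, fell by 1.64 (SE 0.22, adjusted p = 0.00111). Macrophage markers were called by edgeR in 0 of 10 tested, and 9 of the 10 had a positive log2 fold change. Their summed level was 522 to 1047 CPM in members and 253 to 1276 CPM in the other spots.

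The 12 patches were not alike. Over 3426 genes of at least 50 CPM, the median absolute log2 difference between 2 patches of the same section was 0.290 (10 pairs), against 0.466 between patches of both sections of an area (9 pairs) and 0.401 between patches of different areas (47 pairs). These medians are descriptions, since pairs share patches. All but 1 of the 9 pairs within an area held a patch of the aged section described next. The remaining pair, of aged 2 and young 2, stood at 0.289. The median of 0.466 therefore rests mostly on that aged section. It cannot show whether patches that share an area are less alike than patches of different areas. Each patch value below carries counting error only, as patches of a section come from 1 animal.

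Both patches of the aged section of area 4 stood apart from the other 10. Of their spots, 59 of 76 and 19 of 21 were also among the top 10% for Hsd17b7, and no spot of any other patch was. That top 10% took in 175 of the 396 ranked spots of aged 4, 0 spots of aged 2 and 1 of young 4. The patches of aged 2 and young 4 thus had almost no such spots to share. Hsd17b7 had 1621 and 1805 CPM in both aged 4 patches, against 36.0 to 148 CPM in the other patches. The other spots of aged 4 had more, at 2469 CPM, so high Hsd17b7 was not particular to its patches. Timp1, an inhibitor of matrix metalloproteinases, had 26222 and 16368 CPM in both aged 4 patches, against 798 to 2183 CPM in the other patches. Spp1, or osteopontin, a secreted phosphoprotein, had 7442 and 3527 CPM, against 39.2 to 1345 CPM. Timp1 and Spp1 were singled out after their values were seen, and neither was called between members and other spots over the 6 sections (adjusted p of 0.235 and 0.25).

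The same pair of patches had the lowest values of the 12 for Star, Scarb1, Ptgfr and Cdkn2b, and the highest for Hmgcs1. Star had 2938 and 3000 CPM there, against 3256 to 11612 CPM in the other 10. Scarb1 had 729 and 833 CPM, against 1247 to 2797 CPM. Ptgfr had 1144 and 627 CPM, against 1533 to 2769 CPM. Cdkn2b had 177 and 171 CPM, against 273 to 620 CPM. Hmgcs1, which makes the first committed substrate of cholesterol synthesis, had 1515 and 1326 CPM, against 115 to 1058 CPM. Cyp11a1 did not separate them, at 13869 and 10599 CPM, against 8881 to 16317 CPM.

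Within area 4, the 4 patches of the young section differed among themselves. The smallest of them, of 22 spots, had the highest Akr1c18 level of all 12, at 34169 CPM, with 6571 CPM of Star, while the other 3 had 17169 to 18542 CPM of Akr1c18 and 3256 to 4286 CPM of Star. The 3 patches of young 1 held the most Nr4a1, an orphan nuclear receptor and immediate early gene, at 302 to 569 CPM, against 25.0 to 172 CPM in the other 9. The mitochondrial transcript mt-Co1 ranged from 696 CPM in a young 4 patch to 11501 CPM in a young 1 patch, and its part in the other values was not tested.

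**Figure D3:**
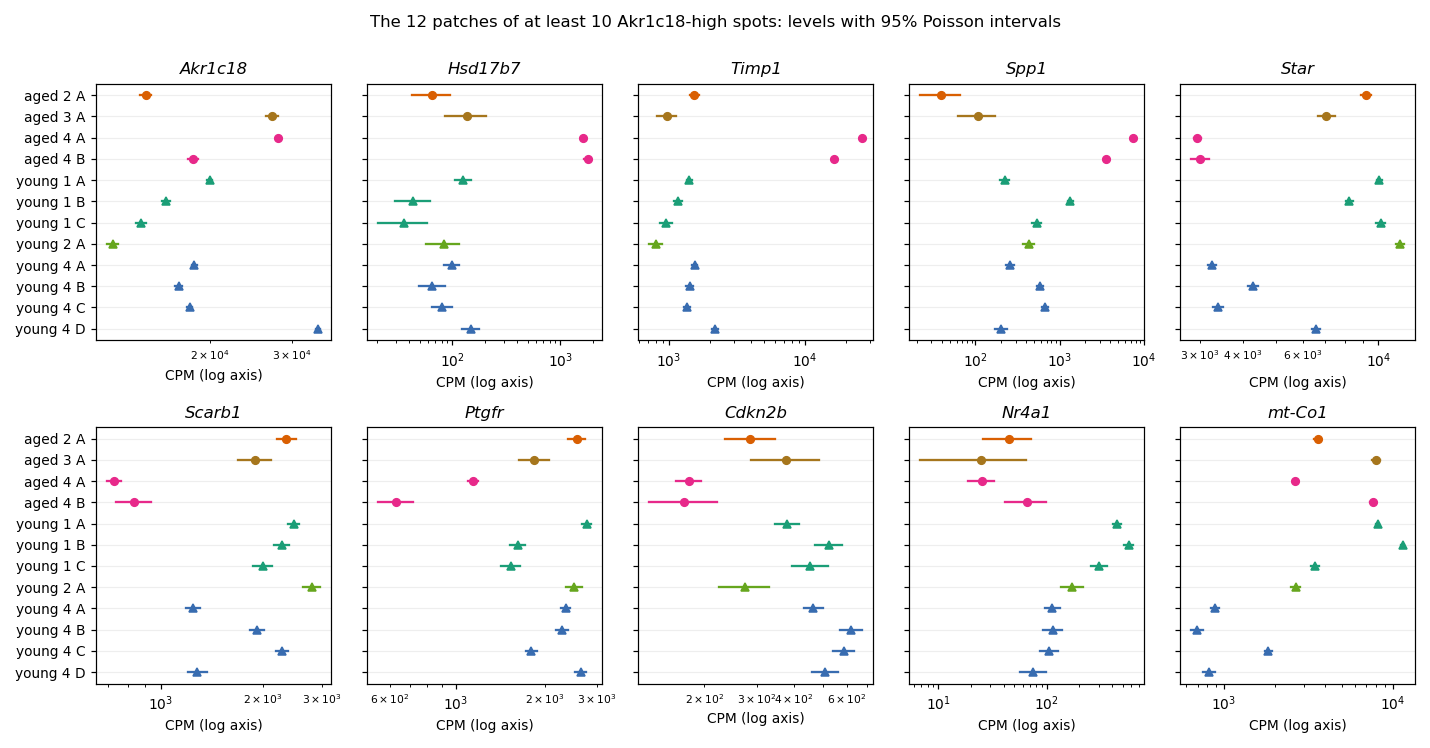
CPM (log axis) of 10 genes in each of the 12 patches, aged patches above (circles) and young below (triangles), with 95% Poisson intervals that cover counting error only. The 2 patches of aged 4 lie apart for Hsd17b7, Timp1 and Spp1 and at the low end for Star, Scarb1, Ptgfr and Cdkn2b.

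Levels were followed from the inside of patches outward in the 3 sections with at least 15 spots in every zone (aged 4, young 1 and young 4). Members with 6 member neighbours were called the core, other members the edge, and other spots were split into those touching a member and those farther off, with 108, 305, 391 and 3330 spots over all sections. Zones rest on Akr1c18 itself, and no test was made. Akr1c18 had 29492, 23846, 7199 and 1422 CPM from core to farther spots in aged 4. In young 1 it had 20421, 16749, 5610 and 620 CPM, and in young 4 it had 22917, 19849, 6181 and 2882 CPM.

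Touching spots stood between members and farther spots for Star in the young sections, with 9953, 9394, 3955 and 653 CPM in young 1 and 4239, 4020, 1662 and 813 CPM in young 4. In aged 4 Star was flatter, at 2985, 2920, 1975 and 1931 CPM. Ptgfr showed the same outward drop in young 1 (2417, 2098, 768 and 137 CPM) and young 4 (2299, 2212, 836 and 324 CPM). In aged 4 it had 1159, 1011, 564 and 1156 CPM, with farther spots as high as the core.

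Lhcgr had 48.4, 67.1, 243 and 244 CPM in young 1 and 47.9, 97.6, 328 and 237 CPM in young 4, so that touching spots were already at or above the level farther off. In aged 4 it had 155, 152, 168 and 908 CPM, and touching spots were as low as members. Smooth muscle actin Acta2 was lowest in the core of all 3 sections, with 70.4 CPM in the core and 148 CPM at the edge of aged 4, 137 and 225 CPM in young 1, and 77.2 and 175 CPM in young 4. Cyp17a1 was highest in spots touching members in young 4 (765 CPM, against 455 CPM farther off), and highest farther off in aged 4 and young 1.

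**Figure D4:**
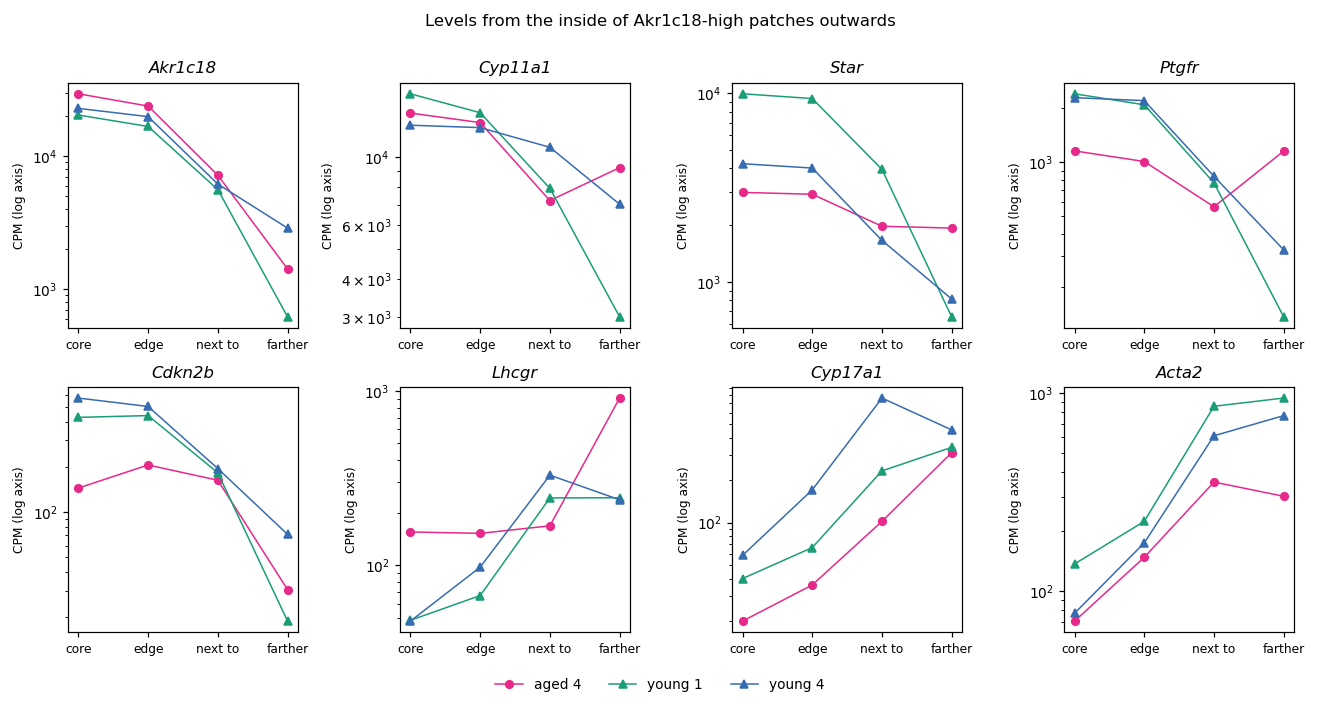
CPM (log axis) of 8 genes from the core and edge of patches to spots next to members and spots farther off, one line per section (circles aged 4, triangles young 1 and young 4). Star and Ptgfr drop at each step outward in both young sections, Acta2 climbs from core to edge in all 3, and Lhcgr in aged 4 stays low until the farther spots.

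Hsd17b7-high spots, the top 10% of the same 4134 spots by Hsd17b7, gave a second class of luteal spots to set against. Both classes had 413 spots and shared 79 (19.1% of each), all in the aged section of area 4 and none in any other section. That section held 175 of the Hsd17b7-high spots, while aged 2 held 0 and young 4 held 1. With shared spots left out, 4 sections had at least 15 spots in each class (aged 3, aged 4, young 1 and young 2). Akr1c18 and Hsd17b7 chose the spots and were not tested. Of 8241 genes tested, 540 passed (6.55%), 307 higher in Akr1c18-high spots (3.73%) and 233 lower (2.83%). The count was 328 without young 1 and 294 without young 2, and scaling by library size alone gave 217 higher and 329 lower, with a median over all genes of −0.13 against 0.01.

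Lhcgr set the classes apart furthest among luteal receptors. It had 110, 101, 62.2 and 42.2 CPM in Akr1c18-high spots (in the order aged 3, aged 4, young 1 and young 2, kept below), against 1221, 1341, 1257 and 1225 CPM in Hsd17b7-high spots. The groups were more than an order of magnitude apart in each section, with a log2 fold change of −3.97 ± 0.30 (adjusted p = 1.81e-05). Cyp11a1 averaged 12253 ± 2642 CPM in Akr1c18-high and 11086 ± 2794 CPM in Hsd17b7-high spots (SD, n = 4 sections), a log2 fold change of 0.31 ± 0.32 that was not called (adjusted p = 0.683). Sfrp4 averaged 6203 ± 2714 CPM in Akr1c18-high and 5141 ± 2164 CPM in Hsd17b7-high spots, and Ptgfr 1749 ± 691 CPM in Akr1c18-high and 1240 ± 417 CPM in Hsd17b7-high spots (SD, n = 4). Neither was called (edgeR adjusted p of 0.504 and 0.424).

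Star had 7119, 2933, 9541 and 10594 CPM in Akr1c18-high spots, against 1998, 2800, 2415 and 1195 CPM in Hsd17b7-high spots. The difference was wide in 3 sections and small in aged 4, and its call (log2 fold change 1.94 ± 0.44, adjusted p = 0.0166) was lost without aged 3, young 1 or young 2 (adjusted p up to 0.133). Tspo had 290, 610, 536 and 582 CPM in Akr1c18-high spots and 106, 205, 211 and 171 CPM in Hsd17b7-high spots, with no overlap (log2 fold change 1.69 ± 0.21, adjusted p = 0.000286). Hsd11b1, which activates glucocorticoids, had 29.0, 17.9, 59.1 and 43.7 CPM in Akr1c18-high spots against 4.18, 8.50, 10.9 and 4.03 CPM in Hsd17b7-high spots (log2 fold change 2.55 ± 0.39, adjusted p = 0.00153). Akr1c14 was the 1 gene of its list called lower here, with 98.6, 38.7, 21.5 and 30.6 CPM in Akr1c18-high spots against 226, 306, 166 and 147 CPM in Hsd17b7-high spots (log2 fold change −2.24 ± 0.30, adjusted p = 0.000482).

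Cholesterol synthesis was lower in Akr1c18-high spots. All 22 genes had a negative log2 fold change, with a median of −0.91 against 0.01 over all genes, and 8 were called. Hsd17b7, which chose the other class, takes part in this pathway, so the direction is not independent of how the spots were chosen. Leaving out shared spots also removed 79 of the 100 Akr1c18-high spots of aged 4. The part of this choice of spots in the difference was not tested. Sc5d, which acts late in the pathway, had 40.6, 92.3, 79.7 and 71.3 CPM in Akr1c18-high spots, against 110, 733, 439 and 153 CPM in Hsd17b7-high spots, with no overlap (log2 fold change −1.95 ± 0.31, adjusted p = 0.00173). Lss and Mvd were also called, with log2 fold changes of −1.76 ± 0.26 and −1.49 ± 0.27.

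Macrophage markers were higher in Akr1c18-high than in Hsd17b7-high spots, with 5 of 7 tested of 11 called, and so were 5 of 9 lipid-laden macrophage genes tested of 12. Against the other spots, no macrophage marker was called, and of the lipid-laden list Lgals3 alone was called higher. There Lyz2 averaged 324 ± 107 CPM in members and 321 ± 204 CPM in the other spots (SD, n = 6 sections, edgeR adjusted p = 0.350). Lyz2 had 249, 646, 320 and 520 CPM in Akr1c18-high spots against 123, 130, 106 and 184 CPM in Hsd17b7-high spots, with no overlap (log2 fold change 1.78 ± 0.23, adjusted p = 0.000463). C1qb, part of complement C1q, had 69.6, 304, 99.4 and 185 CPM in Akr1c18-high spots against 51.6, 63.9, 61.9 and 55.9 CPM in Hsd17b7-high spots (log2 fold change 1.54 ± 0.28, adjusted p = 0.00409). Spp1 had 209, 2084, 621 and 748 CPM in Akr1c18-high spots and 50.2, 149, 89.2 and 89.5 CPM in Hsd17b7-high spots (log2 fold change 3.14 ± 0.28, adjusted p = 3.15e-05). Spots hold several cells, so these values do not place the transcripts in a cell type. Fibroblast markers were called higher in 2 of 11 tested, Lum by 1.75 (SE 0.28, adjusted p = 0.00173) and Pdgfra by 1.44 (SE 0.25, adjusted p = 0.00296). Of smooth muscle, endothelial and cell cycle lists, 0 genes were called by edgeR in this comparison.

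The same direction in all 4 sections was seen in 2220 genes (26.9%), and the largest called rises among them were in Maob, Gal3st2c, Cyp4f14, Cd28, Lpcat2, Insc, Onecut2, Cyp4f18, Spp1 and Pdcd1, with log2 fold changes of 3.82 down to 3.08. Maob, the monoamine oxidase B, had 81.2, 32.8, 145 and 61.1 CPM in Akr1c18-high spots and 6.97, 3.32, 10.9 and 3.58 CPM in Hsd17b7-high spots (adjusted p = 1.81e-05). Pdcd1, the receptor PD-1, had 23.2, 68.5, 53.4 and 42.2 CPM in Akr1c18-high spots and 4.18, 12.2, 5.46 and 3.13 CPM in Hsd17b7-high spots (log2 fold change 3.08 ± 0.33), while no list gene of T and NK cells was abundant enough to be tested. Cdkn2b and Jun, high against the other spots, were also high here, with log2 fold changes of 3.02 ± 0.28 and 2.02 ± 0.29.

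The largest falls were in Kcnj16, Aatk, Ces2a, Cited1, Lhcgr, Lrrn1, Ssu2, Rasgrp1, Saa2 and Dpysl4, with log2 fold changes of −4.97 to −3.52. Kcnj16, an inward rectifier potassium channel, had 23.2, 14.9, 8.32 and 0 CPM in Akr1c18-high spots and 121, 545, 353 and 111 CPM in Hsd17b7-high spots (adjusted p = 3.25e-05). Cited1, a transcriptional coregulator, had 29.0, 23.8, 14.9 and 0 CPM in Akr1c18-high spots against 102, 720, 350 and 37.6 CPM in Hsd17b7-high spots (log2 fold change −4.22 ± 0.44). The vessel growth peptide Apln had 0, 0, 8.32 and 1.46 CPM in Akr1c18-high spots and 22.3, 29.9, 34.6 and 35.4 CPM in Hsd17b7-high spots (log2 fold change −2.80 ± 0.50, adjusted p = 0.00399).

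**Figure D5:**
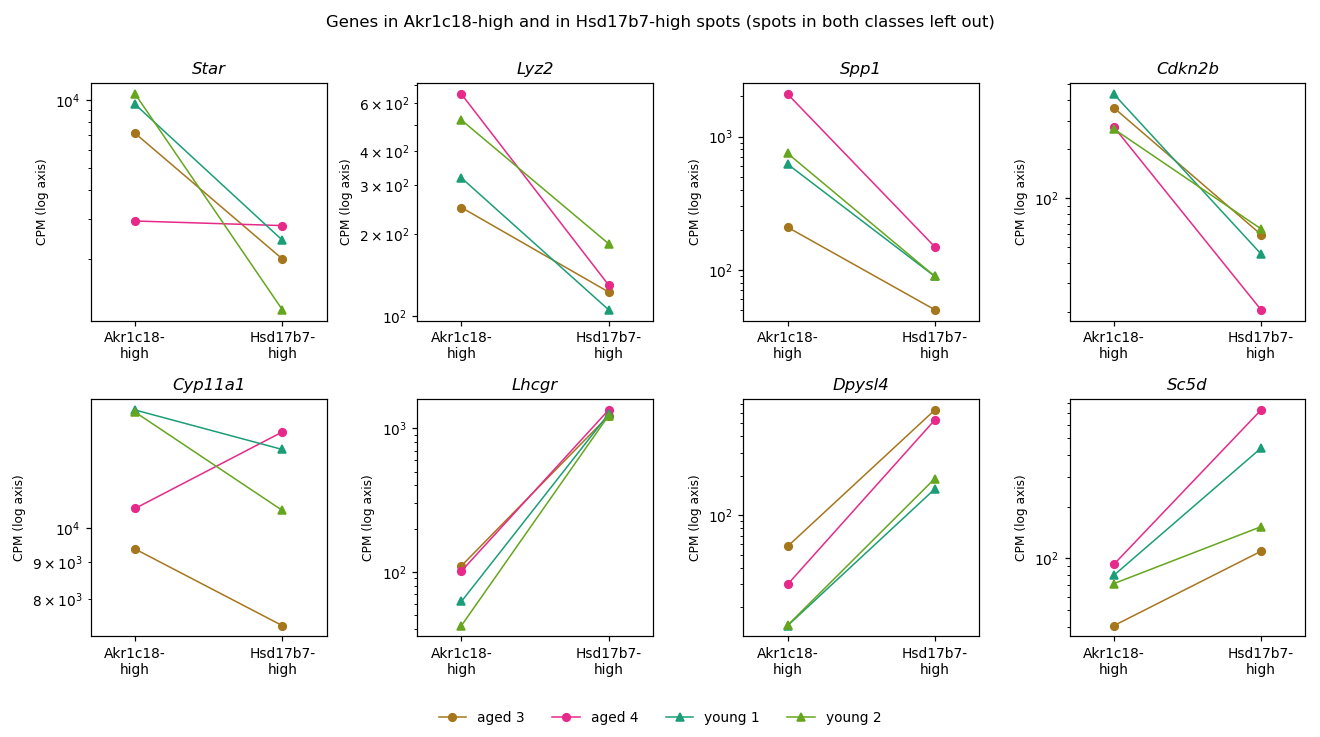
CPM (log axis) of 8 genes in Akr1c18-high spots, left, and Hsd17b7-high spots, right, with spots in both classes left out, each line 1 section (circles aged, triangles young). Lhcgr, Dpysl4 and Sc5d climb in all 4 sections, Lyz2, Spp1 and Cdkn2b fall in all 4, Star is nearly level in aged 4, and Cyp11a1 has no common direction.

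The age comparison asked whether Akr1c18-high spots were rarer or differed in expression in aged ovaries. They made up 1.00, 3.15, 7.63 and 25.3% of the spots of the aged sections of areas 1 to 4, and 14.0, 2.60, 1.87 and 22.1% of those of the young sections. The groups overlapped throughout. The means were 9.26 ± 11.0% in aged and 10.1 ± 9.70% in young sections (SD, n = 4 each), a difference of −0.867 percentage points (two-sided exact permutation test, p = 0.914, the smallest possible being 0.0286). Young and aged sections were told apart by the sides the labels give. The labels do not give the orientation of the image, and a turned image would exchange the ages of its area. Area 3, taken as the most doubtful, was also run with its ages exchanged (−3.75 percentage points), and the other areas were not. The sign of the difference turned with the choice of sections, from −6.20 without aged 4 to 3.12 without young 4, and for the top 5% of spots (0.755).

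Within Akr1c18-high spots, no gene passed between 3 aged and 3 young sections. Of 9881 genes tested, 0 were called by edgeR (0.00%). An unadjusted p under 0.05 was reached by 578 of them, and chance alone gives such values for a share of genes equal to that threshold. The lowest adjusted p was 0.824, and DESeq2 called 4. Sections of the ages did not overlap for 893 genes (9.04%), a share no larger than chance alone is expected to give with 3 sections an age. The gene with the smallest p was Slc16a9, a carnitine and monocarboxylate transporter, with 6.65, 11.6 and 3.83 CPM in members of aged 2, 3 and 4, against 52.1, 33.5 and 27.6 CPM in members of young 1, 2 and 4. Its log2 fold change was −2.87 ± 0.48. The next was Nr4a1, with 44.9, 23.2 and 30.7 CPM in aged and 453, 218 and 104 CPM in young members (log2 fold change −2.97 ± 0.58). Both had an adjusted p of 0.824, and neither is a call.

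The other 8 genes with the smallest p were Zfp51 and Klhl5, with higher values in aged members, and Ly6c1, Lama2, Slc22a23, Myl9, Crip2 and Aoc3, with lower ones. The ages did not overlap in any of these 10 genes, which were picked by their p. Akr1c18-high spots of aged 4 decided several means. Hsd17b7 had 74.8, 133 and 1668 CPM in aged and 83.6, 64.0 and 97.2 CPM in young members, and Timp1 had 1710, 951 and 24734 CPM in aged and 1249, 793 and 1597 CPM in young members. All 22 cholesterol synthesis genes had a higher fitted value in aged members, with a median log2 fold change of 0.88, but none passed. Hmgcs1 showed the spread behind that median, with 587, 319 and 1499 CPM in aged and 288, 814 and 225 CPM in young members.

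A test of whether the age difference in members differed from that in the other spots called 0 of 11869 genes with edgeR (0.00%), although 1256 had an unadjusted p under 0.05. The lowest adjusted p was 0.0808, and DESeq2 called 36. That result moved with the samples, with 23 calls without aged 2, 5 without aged 3, 3 without young 2 and 62 with the ages of area 3 exchanged. Thrsp, a regulator of lipid synthesis, had the smallest p. It had 1.66, 5.80 and 12.7 CPM in aged and 26.7, 27.7 and 19.8 CPM in young members, while in the other spots it averaged 59.4 ± 52.5 CPM in aged and 27.5 ± 14.9 CPM in young sections (SD, n = 3 each). Slc16a9 was among the 10 genes with the smallest p here too, at 11.2 ± 3.58 CPM in aged and 7.92 ± 1.10 CPM in young sections in the other spots. Its rank here is not independent of its rank between ages, since both tests use the same member sums.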

How the data were processed

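The deposited tables give the authors' UMI counts, whole and unscaled, for each gene in each spot; deposited position lists give array and pixel coordinates. The submitters' processing notes name Space Ranger 1.2.1 and the mm10 build. Annotation and strand use in counting: not given in the sources used here. The tables held 32285 genes and 4191 spots, of which 57 had under 1000 UMIs; 72 further spots listed over tissue had no column and were left out. Spot barcodes mark array positions, so 1358 of 2204 barcodes recur in 2 or more areas without sharing tissue. Replicates are animals, 1 section each. Spots went to the young or aged section by the sides in the labels, split at the widest gap; k-means with 2 centres moved 11 spots, 0 of them members.

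Counts were summed per section and class and tested with edgeR 4.0.16 (limma 3.58.1, R 4.3.3; quasi-likelihood, TMM, filterByExpr, Benjamini-Hochberg over all genes tested, threshold 0.05), with section as a factor between classes and age alone between ages; DESeq2 1.42.0 was an alternative. CPM are relative to total counts and fold changes to TMM-scaled counts, so their ratios can differ. SE comes from the fit, and p-values measure the spread between sections. Intervals of 95% are exact Poisson and cover counting error only. The fits were also run on simulated counts with known fold changes. Those counts had the same spread for every gene and no section differences beyond depth, so they check the code and not the calls. Members and lists were chosen with earlier results of these data known. Named genes are, in each list, the called genes with the largest change at 10 CPM or more, any member of the luteal lists, and, over all genes, the largest changes at 20 CPM or more with 1 direction in every section, from which the text gives a part; others are marked where named; 1 gene is not reported here. Sections of an area share its number, array and library. Their deviations from the age means correlated at 0.268 in area 2 and 0.0612 in area 4, the areas with members enough in both sections.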

Additional observations from a re-analysis of the deposited data

Results flagged for a closer look

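Of 140 groups of section values checked, 28 held 1 section whose value stood far from the others of its group. Chance alone gives about 1 group in 20 (7 here). Many of the genes share a section, so the groups are not independent.

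In Akr1c18-high spots of aged 4, high values stood apart for Hsd17b7 (1668 CPM), Timp1 (24734 CPM), Spp1 (6859 CPM) and Fdps (2551 CPM), and a low value for Ptgfr (1082 CPM). In the other spots of that section, Hsd17b7 (2469 CPM), Sfrp4 (5484 CPM) and Nppc (63.6 CPM) were high. Of the 100 Akr1c18-high spots there, 79 were also Hsd17b7-high.

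In Akr1c18-high spots of aged 3, which has 19 of them and the lowest depth, high values stood apart for Slc18a2 (209 CPM), Nap1l5 (92.8 CPM), Nr5a2 (162 CPM), Esr2 (63.8 CPM), Vcan (52.2 CPM), Ccnb1 (34.8 CPM), Ccnb2 (29.0 CPM) and Hsd11b2 (52.2 CPM). In its other spots Vcan was high as well (193 CPM). The part of depth in these values was not tested.

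In Akr1c18-high spots of aged 2, Olfr810 (274 CPM), Qpct (196 CPM) and Dcn (241 CPM) stood high. In the other spots of aged 2, so did Olfr810 (25.1 CPM), Qpct (55.8 CPM), Onecut2 (116 CPM), S100a4 (1019 CPM), S100a6 (16369 CPM) and Tspo (771 CPM).

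In young 4, Fos in Akr1c18-high spots (36.0 CPM) and Agt in the other spots (989 CPM) stood high.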

How the results depend on the processing

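Of 60 named genes called between Akr1c18-high and other spots, 54 kept the call in every fit that left out 1 section, and 40 of 41 did against Hsd17b7-high spots. Named genes were mostly picked for large called changes in the full fit, many with 1 direction in every section. Their shares therefore do not describe the calls at large. The count of calls against the other spots was 174 for the top 5% of spots and 292 with at least 30 spots a section (3 sections in each), 3321 for the top 20% and 687 with no replicate block, and 800 to 2792 with 1 section left out. Against Hsd17b7-high spots it was 138 for the top 5%, 1421 for the top 20%, 975 with no filter on low counts, 276 with no replicate block and 294 to 585 with 1 section left out. Between ages, DESeq2 called 4 genes and no filter on low counts gave 267, while leaving out any 1 section gave 0, as did the replicate block (690 at an unadjusted p under 0.05); the top 5% and 30-spot fits were not run. For the age difference in members against that in other spots, DESeq2 called 36, no filter 475, the top 5% 669, 30 spots a section 831 (with aged 4 as the lone aged section in the last 2, which is then assumed to vary like the young ones), the exchanged ages of area 3 62, and leaving out 1 section 0 to 23. The 30-spot fit against Hsd17b7-high spots was not run. The difference in share was 0.755 points for the top 5%, −6.20 to 3.12 with 1 section left out, and had p = 1 in exact sign flips within areas, the replicate block (smallest possible p 0.125). Hsd3b1 against the other spots turned to −0.0600 with library size alone and ranged from −0.0841 to 0.509 with 1 section left out (below 0 without young 1 and without young 4), and Spp1 between ages ranged from −2.25 without aged 4 to 2.55 without aged 2. Patches of at least 10 spots numbered 7 for the top 5% and 19 for the top 20%. The cause of these changes was not tested, beyond the fewer sections or genes that a setting leaves. Depth limits aged 3 most, at 172500 UMIs over its members, where 1 UMI is worth 5.80 CPM, so low genes rest on few UMIs there.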

Other observations

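Gene groups not described above also held calls between Akr1c18-high spots and the other spots. Of 27 genes of the extracellular matrix and its remodelling tested of 28, 4 were called higher and 3 lower. Sparc, a matrix protein that binds collagen, had 1310, 2105 and 2526 CPM in Akr1c18-high spots (lowest, median and highest of 6 sections) and 1217, 1444 and 1678 CPM in the other spots (log2 fold change 0.67 ± 0.15, edgeR adjusted p = 0.0128). Of 11 senescence genes and cell cycle inhibitors tested of 14, Cdkn2b was the 1 called higher and 2 were called lower. Lgals3, or galectin 3, had 349, 548 and 907 CPM in Akr1c18-high spots and 88.0, 186 and 351 CPM in the other spots, and was higher in 5 of 6 sections (log2 fold change 1.75 ± 0.32, adjusted p = 0.00461). It was the 1 gene of 11 lipid-laden macrophage genes tested that was called higher, and 2 of that list were called lower.

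Surface epithelium markers were called lower in 3 of 8 tested, oviduct epithelium markers in 2 of 3 and adipocyte markers in 2 of 2. Krt18, a keratin of simple epithelia, had 0, 2.17 and 5.24 CPM in Akr1c18-high spots and 10.6, 20.6 and 37.5 CPM in the other spots, with no overlap. Among called genes of at least 20 CPM in 1 class with 1 direction in every section, the lowest fold change was that of Bmp3, a member of the TGF-beta family, with 0, 3.24 and 5.80 CPM in Akr1c18-high spots and 3.82, 21.9 and 43.4 CPM in the other spots (log2 fold change −2.62 ± 0.30, adjusted p = 0.000641). Rasd1, a small G protein induced by glucocorticoids, had 3.33, 13.1 and 33.7 CPM in Akr1c18-high spots and 15.3, 76.3 and 208 CPM in the other spots (log2 fold change −2.39 ± 0.26, adjusted p = 0.000504). Of the lists for T and NK cells, B and plasma cells and erythrocytes, with 5, 5 and 3 genes tested, 0 were called by edgeR.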
